A study of Mus musculus with 6 samples.

Results

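The genes described here are 7 genes of the superficial zone of cartilage, *Prg4*, *Clu*, *Cilp*, *Abi3bp*, *Thbs4*, *Erg* and *Creb5*. They were taken by name from the deposited table, in which each matched 1 of 54532 genes, and all 7 were among the 14801 genes with enough counts to be tested. All 7 were lower on average in Gli1+ than in Gli1- cells. The 2 populations came from Gli1-CreERT2; tdTomato mice aged 1 month (c57BL/6 in the labels), harvested 24 h after tamoxifen (TAM), so the CreERT2 allele, the reporter and TAM were common to both. The Gli1+ cells were CD45-CD31-Ter119-tdTomato+ and the Gli1- cells CD45-CD31-Ter119-tdTomato-, with 3 libraries each, numbered 1 to 3. Because the Gli1 locus drives the recombinase, a cell that expressed *Gli1* without recombining was sorted as Gli1-. The tissue is named costal cartilage in the paper and growth plate in the labels.

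The superficial zone is the thin outermost layer of articular cartilage, in which flattened cells secrete lubricant and make matrix that differs from that of the deeper zones. Its best known product is lubricin, encoded by *Prg4*, which coats the sliding surface of joints. Lubricin is also made by the synovial lining and by tendon, and clusterin by many cell types, so these genes are markers of the zone by their level and combination and none is unique to it. Neither tissue named for these libraries, costal cartilage or growth plate, is articular cartilage. The paper reports Gli1+ cells in the superficial layer of articular cartilage, so the levels here do not describe that layer. In bulk RNA, fewer cells of a type and less RNA per cell cannot be told apart.

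The libraries held 17114101 to 18602482 counted reads. *Gli1* was at 4.55, 6.39 and 7.98 CPM (counts relative to the library total, after TMM scaling of the libraries against each other) in Gli1+ replicates 1, 2 and 3 and at 0.724, 1.26 and 2.43 CPM in the Gli1- replicates, so the sorted label and the gene that drives it went together in every library. Some libraries stood apart. Gli1+ replicate 1 had counts on 15000 genes, against 20666 to 23360 in the others. Gli1- replicate 1 held 3300 CPM summed over 10 leukocyte markers, against 41.1 to 184 in the other 5 libraries, although CD45+ cells had been gated out. Both libraries of replicate 2 were the richest in *Col2a1*, with 12239 CPM in the Gli1+ and 13534 CPM in the Gli1- library, against 2130 to 3240 CPM elsewhere.

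To show the sequence just upstream of these genes, promoter windows of RefSeq (GRCm38.p6, 250 bases before to 50 bases after a start) were read for the 4 genes that had one, *Creb5*, *Erg*, *Cilp* and *Thbs4*. *Prg4*, *Clu* and *Abi3bp* had no entry. There were 7 windows in all, of which the outermost of each gene is printed 5′ to 3′ on the gene's strand. They lie at chr6:53287053-53287352 (plus strand, *Creb5*), chr16:95586544-95586843 (minus strand, *Erg*), chr9:65264930-65265229 (plus strand, *Cilp*) and chr13:92794769-92795068 (minus strand, *Thbs4*). Capitals mark matches to the motifs searched.
Creb5: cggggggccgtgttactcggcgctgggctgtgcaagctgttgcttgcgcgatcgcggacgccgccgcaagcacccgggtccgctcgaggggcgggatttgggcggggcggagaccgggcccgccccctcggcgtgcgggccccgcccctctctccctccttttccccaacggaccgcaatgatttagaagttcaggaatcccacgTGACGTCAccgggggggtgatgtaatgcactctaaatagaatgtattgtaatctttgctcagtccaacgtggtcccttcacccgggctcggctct
Erg: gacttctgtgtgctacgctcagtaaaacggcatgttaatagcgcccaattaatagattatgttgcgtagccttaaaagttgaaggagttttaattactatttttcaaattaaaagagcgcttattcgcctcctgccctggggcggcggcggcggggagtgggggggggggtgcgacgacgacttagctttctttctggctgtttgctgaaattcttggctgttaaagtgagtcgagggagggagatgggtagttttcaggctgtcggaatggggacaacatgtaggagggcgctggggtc
Cilp: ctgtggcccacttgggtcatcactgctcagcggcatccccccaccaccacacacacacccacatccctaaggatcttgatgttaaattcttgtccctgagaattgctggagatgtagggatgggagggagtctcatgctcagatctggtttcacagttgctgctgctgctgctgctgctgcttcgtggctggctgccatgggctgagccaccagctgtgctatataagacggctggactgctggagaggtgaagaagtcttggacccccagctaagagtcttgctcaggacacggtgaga
Thbs4: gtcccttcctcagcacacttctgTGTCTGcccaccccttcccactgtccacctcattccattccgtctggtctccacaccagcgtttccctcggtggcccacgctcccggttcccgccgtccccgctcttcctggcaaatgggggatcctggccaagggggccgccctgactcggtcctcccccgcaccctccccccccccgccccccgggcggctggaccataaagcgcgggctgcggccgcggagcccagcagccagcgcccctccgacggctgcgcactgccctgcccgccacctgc

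The capitals in the *Creb5* window are the palindrome TGACGTCA, the cAMP response element to which CREB and ATF factors, the family of CREB5 itself, can bind. It starts 45 bases before the RefSeq transcript start that defines the window, which lies inside the span that the deposited table gives for *Creb5*, and 1.79% of all 32851 windows hold it. The capitals in the *Thbs4* window are the reverse complement of CAGACA, a SMAD motif held by 21% of windows. Searched on both strands, the ETS motifs CCGGAAGT and CAGGAAGT, the FOXO motif TGTTTAC, the SOX motif ACAAAG and the GLI motif TGGGTGGTC matched 0 of the 7 windows, against 3.89%, 3.33%, 3.65%, 18.7% and 0.253% of all windows. The AP-1 motif TGANTCA, held by 7.81% of windows, matched the second *Creb5* window, and TATAAA, held by 13.6%, matched 1 of the inner *Erg* windows. None of the motifs overlaps another in these windows. Matches describe the letters and not binding.

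*Prg4* (ENSMUSG00000006014, chromosome 1, 150449412 to 150466165, minus strand, GRCm38) was at 133, 79.8 and 142 CPM in Gli1+ replicates 1, 2 and 3. In Gli1- replicates 1, 2 and 3 it was at 271, 194 and 373 CPM. Every Gli1- library lay above every Gli1+ library, and replicate 2 was the lowest of both populations. Within replicate numbers *Prg4* was 2.03-fold, 2.43-fold and 2.63-fold higher in Gli1- cells, the most even ratio among the 7 genes (SD 0.191 on the log2 scale). The log2FC (Gli1+ over Gli1-) was -1.24 with a standard error of 0.45. The last 524 bases of the *Prg4* span overlap *Tpr*, a nuclear pore gene on the other strand, and strand use in counting is not given. *Tpr* had a log2FC of 1.18, opposite in sign to that of *Prg4*, and Gli1+ replicate 1 carried most of it. It was at 516, 88.2 and 198 CPM in Gli1+ replicates 1, 2 and 3 and at 82.0, 80.7 and 192 CPM in the Gli1- replicates. The part of shared reads in the level of *Prg4* was not tested.

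*Cilp* encodes cartilage intermediate layer protein, a matrix protein that can bind TGF-beta1 (ENSMUSG00000042254, chromosome 9, 65265180 to 65280605, plus strand). It was at 29.7, 27.0 and 19.7 CPM in Gli1+ replicates 1, 2 and 3 and at 50.9, 77.7 and 46.5 CPM in Gli1- replicates 1, 2 and 3. As with *Prg4*, the populations did not overlap, and each varied little within itself, the highest Gli1- library being 1.67-fold above the lowest. The log2FC of *Cilp* was -1.20 (standard error 0.40).

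*Clu* encodes clusterin, a secreted chaperone glycoprotein (ENSMUSG00000022037, chromosome 14, 65968483 to 65981547, plus strand), and was the most abundant of the 7 genes. It was at 837, 3105 and 1569 CPM in Gli1+ replicates 1, 2 and 3. In Gli1- replicates 1, 2 and 3 it was at 4635, 11214 and 4838 CPM. The populations did not overlap, and replicate 2 was the highest library of each. The ratio within replicate numbers was 5.54, 3.61 and 3.08, and the log2FC was -1.91 with a standard error of 0.70. A list of 9 genes of heat shock and dissociation stress, among them *Hspa1b*, *Hspa1a* and *Jun*, moved with *Clu*. The summed level of that list was 1866, 15465 and 5750 CPM in the Gli1+ replicates and 11059, 32725 and 16760 CPM in the Gli1- replicates. Of its genes 9 of 9 were lower on average in Gli1+ cells, against 49.9% of all genes, and the median log2FC was -1.32. DESeq2 with the replicate block called 6 of the 9, all lower, against 2.11% of all genes called lower. The part of stress in the level of *Clu* was not tested.

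*Thbs4* encodes thrombospondin-4, a matrix glycoprotein best known from tendon and muscle (ENSMUSG00000021702, chromosome 13, 92751590 to 92794818, minus strand). It was at 91.5, 180 and 18.6 CPM in Gli1+ replicates 1, 2 and 3 and at 207, 890 and 85.0 CPM in Gli1- replicates 1, 2 and 3. The populations overlapped, since replicates differed up to 9.65-fold within Gli1+ and 10.5-fold within Gli1- cells, with replicate 2 highest and replicate 3 lowest in both. Within replicate numbers *Thbs4* was nonetheless 2.27-fold, 4.94-fold and 4.56-fold higher in Gli1- cells. The log2FC of *Thbs4* was -2.03 (standard error 1.02), and without Gli1- replicate 2 it was -0.64. With both libraries of replicate 2 left out, the edgeR fit within replicate numbers gave *Thbs4* a log2FC of -1.72. Of a list of 8 tendon genes, 6 were lower on average in Gli1+ cells, and the median log2FC was -1.05. The list summed to 2323, 1083 and 762 CPM in Gli1+ replicates 1, 2 and 3. In Gli1- replicates 1, 2 and 3 it summed to 974, 2678 and 807 CPM. In replicate 1 the tendon sum was thus higher in Gli1+ cells, where *Thbs4* was lower. Most of that Gli1+ sum came from *Tnc* and *Col12a1*, at 1039 and 1003 CPM, against 224 and 188 CPM in Gli1- replicate 1. The other genes of the list were lower in Gli1+ than in Gli1- replicate 1. The 3 most abundant members, *Fmod*, *Col12a1* and *Tnc*, had log2FC values of -1.23, 1.17 and 1.79, the last 2 being the ones that were higher. The other 5, named after their values were seen, were *Kera* (-2.56), *Tnmd* (-1.97), *Col14a1* (-1.19), *Mkx* (-0.91) and *Scx* (-0.73). DESeq2 with the replicate block called 2 of the 8, *Kera* and *Fmod*, both lower, against 2.11% of all genes called lower. Skeletal muscle markers summed to 3.62 to 37.2 CPM in Gli1+ and 5.92 to 31.6 CPM in Gli1- libraries. The part of tendon cells in the level of *Thbs4* was not tested.

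*Abi3bp* encodes a secreted matrix protein that binds ABI3 (ENSMUSG00000035258, chromosome 16, 56477878 to 56690135, plus strand). It was at 39.3, 41.1 and 11 CPM in Gli1+ replicates 1, 2 and 3 and at 37.0, 142 and 28.8 CPM in Gli1- replicates 1, 2 and 3. The populations overlapped, and *Abi3bp* was the only 1 of the 7 genes that was higher in Gli1+ cells in any pair, at a Gli1- to Gli1+ ratio of 0.941 for replicate 1 against 3.46 and 2.61 for replicates 2 and 3. The log2FC of *Abi3bp* was -1.19 (standard error 0.75, 95% interval -2.90 to 0.53). A single library carried much of that value, since without Gli1- replicate 2 the log2FC was -0.15. With both libraries of replicate 2 left out, the edgeR fit within replicate numbers gave *Abi3bp* a log2FC of -0.68.

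*Erg* encodes a transcription factor of the ETS family that acts in articular chondrocytes and also in endothelium (ENSMUSG00000040732, chromosome 16, 95359169 to 95586593, minus strand). It was at 9.42, 15.8 and 8.93 CPM in Gli1+ replicates 1, 2 and 3. In Gli1- replicates 1, 2 and 3 it was at 19.1, 79.0 and 39.6 CPM. The populations did not overlap, and the Gli1+ libraries lay within 1.77-fold of each other whereas the Gli1- libraries spread over 4.13-fold. Its log2FC of -2.01 (standard error 0.59) was the second lowest among the 7 genes. Of the endothelial markers, *Pecam1*, which encodes the CD31 used for gating, was at 2.06 to 6.05 CPM across the Gli1- libraries and 0.798 to 1.79 CPM across the Gli1+ libraries. The whole list of 8 summed to 23.5, 8.95 and 5.87 CPM in Gli1- replicates 1, 2 and 3 and to 4.34 to 6.30 CPM in Gli1+ libraries. The part of endothelial cells in the level of *Erg* was not tested.

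*Creb5* encodes a transcription factor of the CREB and ATF group that promotes *Prg4* expression in articular chondrocytes (ENSMUSG00000053007, chromosome 6, 53287270 to 53700376, plus strand). It was at 19.2, 24.7 and 12.7 CPM in Gli1+ replicates 1, 2 and 3 and at 19.5, 27.6 and 33.8 CPM in Gli1- replicates 1, 2 and 3. The populations overlapped, and the ratio within replicate numbers was 1.02 and 1.11 in replicates 1 and 2 and 2.66 in replicate 3. The log2FC of -0.51 (standard error 0.44, 95% interval -1.53 to 0.50) was the smallest of the 7, and its interval holds both no difference and the size seen for *Prg4*. Without replicate 3, the edgeR fit within replicate numbers gave *Creb5* a log2FC of -0.08.

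**Figure D1:**
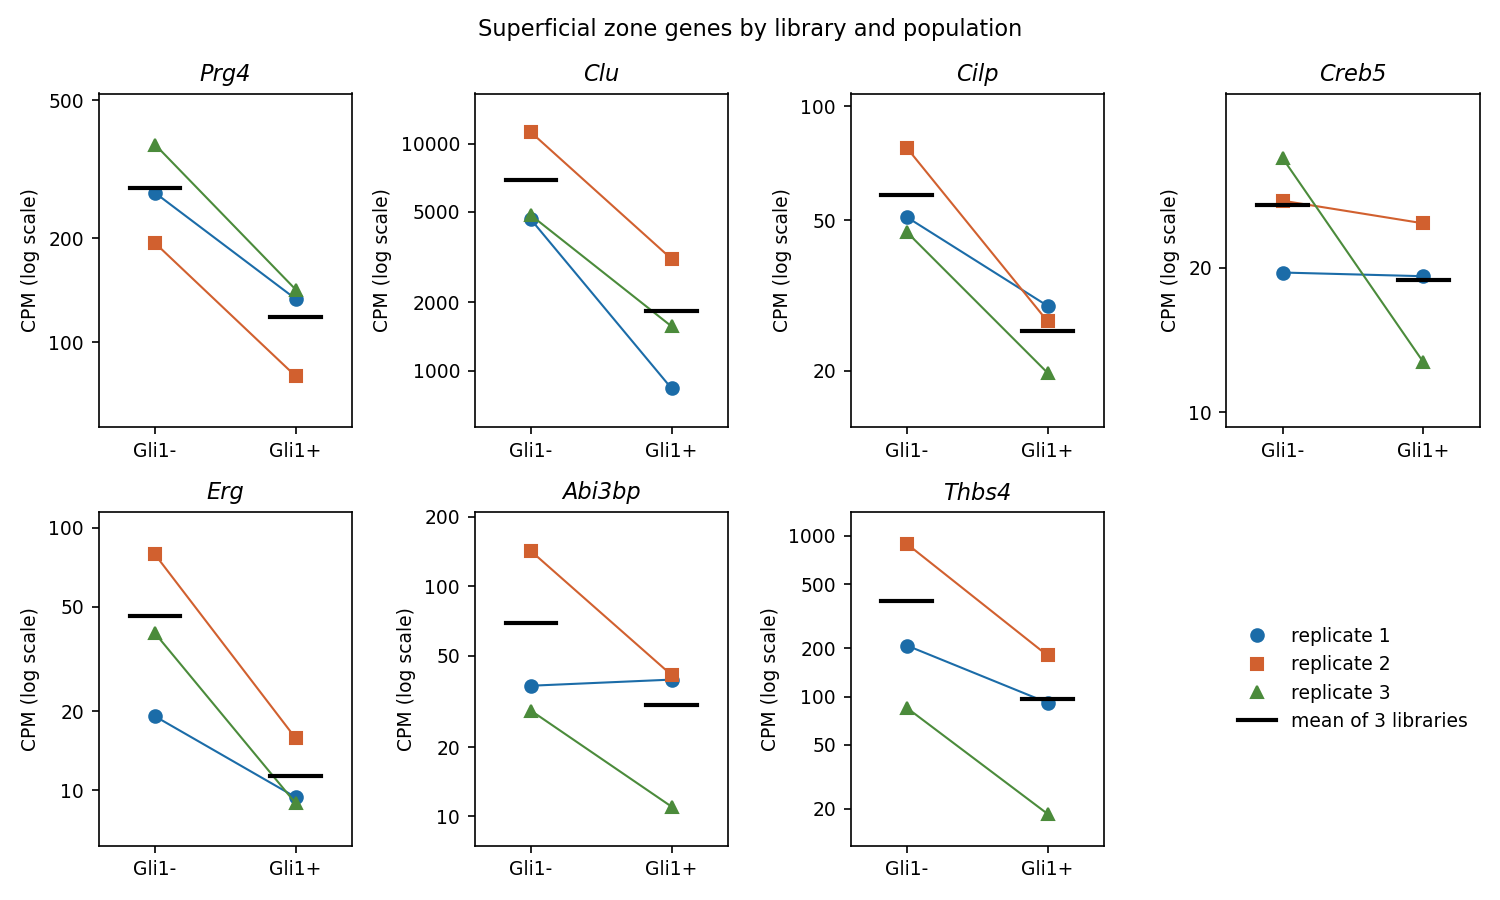
Level of each superficial zone gene in CPM (log scale) in the 3 Gli1- and 3 Gli1+ libraries, with lines joining libraries of the same replicate number and black bars for the population means. *Prg4*, *Clu*, *Cilp* and *Erg* do not overlap between the populations, and *Abi3bp* of replicate 1 has the only line that rises towards Gli1+ cells.

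Levels were compared between genes as counts per base of gene length, scaled to the same total in each library. On this scale *Clu* was at 5641 ± 900 (SD, n = 3) in Gli1- and 1545 ± 424 (SD, n = 3) in Gli1+ cells, far above the others. *Thbs4* at 293 ± 233 and *Prg4* at 218 ± 120 in Gli1- cells (SD, n = 3) did not differ beyond their spread. *Cilp* at 40.8 ± 3.33, *Erg* at 36.7 ± 14.4 and *Abi3bp* at 24 ± 13.2 in Gli1- cells (SD, n = 3) followed, also within the spread of the last 2. *Creb5* was lowest at 3.41 ± 1.52 in Gli1- and 2.45 ± 0.877 in Gli1+ cells (SD, n = 3), with the 25021 bases that the table gives as its length lowering the value. In Gli1+ cells *Prg4* (99.0 ± 52.5) came before *Thbs4* (87.3 ± 58.4), and *Abi3bp* (13.6 ± 9.40) before *Erg* (10.3 ± 1.64), both pairs within their spread (SD, n = 3).

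The question whether single genes differed between the populations was tested over all genes with edgeR's quasi-likelihood test. None of the 7 genes passed, with calls set at an adjusted p-value under 0.05 and a |log2FC| above 1, and 0 of 14801 genes (0.0%) passed as lower in Gli1+ cells, while the adjusted p was 0.9999 for each gene. Over all genes and both directions 514 had an unadjusted p-value under 0.05 in edgeR, and DESeq2 without a block called 30 genes, of which 0 were members. Unadjusted p-values from the same edgeR test were 0.00888 for *Erg*, 0.0176 for *Cilp*, 0.0243 for *Prg4*, 0.0263 for *Clu*, 0.0811 for *Thbs4*, 0.150 for *Abi3bp* and 0.277 for *Creb5*. The 4 of 7 genes under 0.05 stand beside 2.04% of all genes that were lower in Gli1+ cells at that threshold. The same 4 genes had every Gli1+ library below every Gli1- library, which held for 4.45% of all genes. For each of the 4, a 2-sided exact permutation test over the libraries gave p = 0.1, the smallest that 3 against 3 allow.

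Because the paper describes the Gli1+ and Gli1- cells as coming from the same mice, the genes were also followed within replicate numbers. The labels do not tie libraries to animals. Of the 21 differences between same-numbered libraries, 20 were below 0, and 6 of 7 genes were lower in Gli1+ cells in 3 of 3 pairs, against 19.8% of all genes. The median log2 difference of the 7 genes was -1.01, -1.79 and -1.40 for replicates 1, 2 and 3, where the median of all genes was -0.18, 0.03 and 0.02. With the replicate number as a block, the unadjusted p-value in edgeR was under 0.05 for 5 of 7 genes, against 5.25% of all genes lower at that threshold, and the adjusted p-values lay between 0.307 for *Clu* and 0.740 for *Creb5*. *Thbs4* joined the 4 genes named above, with a log2FC of -1.89 whose standard error was 0.34 with the block and 1.02 without it.

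The Wald test of DESeq2, run with the replicate block, called 5 of 7 genes lower in Gli1+ cells, against 2.11% of all genes. The adjusted p from DESeq2 was 6.46e-07 for *Clu*, 6.05e-05 for *Thbs4*, 0.00169 for *Erg*, 0.00368 for *Prg4* and 0.0303 for *Cilp*, and *Abi3bp* (0.268) and *Creb5* (0.712) were not called. Over all fits run, the adjusted p from edgeR, DESeq2 or limma ran from 1.58e-15 to 1.00 for *Clu*, 3.69e-22 to 1.00 for *Thbs4*, 8.79e-20 to 1.00 for *Erg*, 1.28e-08 to 1.00 for *Prg4*, 1.29e-08 to 1.00 for *Cilp*, 1.70e-11 to 1.00 for *Abi3bp* and 0.00918 to 1.00 for *Creb5*. The lowest of these values came from edgeR with the block on the 4 libraries of replicates 2 and 3, with few degrees of freedom of their own. Without both libraries of replicate 1, DESeq2 called 6 of 7 genes lower, *Abi3bp* included, against 3.27% of all genes, and edgeR with the block called the same 6, against 4.67%. Without replicate 2 DESeq2 called *Clu* alone, against 0.941% of all genes, and without replicate 3 again *Clu* alone, against 0.421%.

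**Figure D2:**
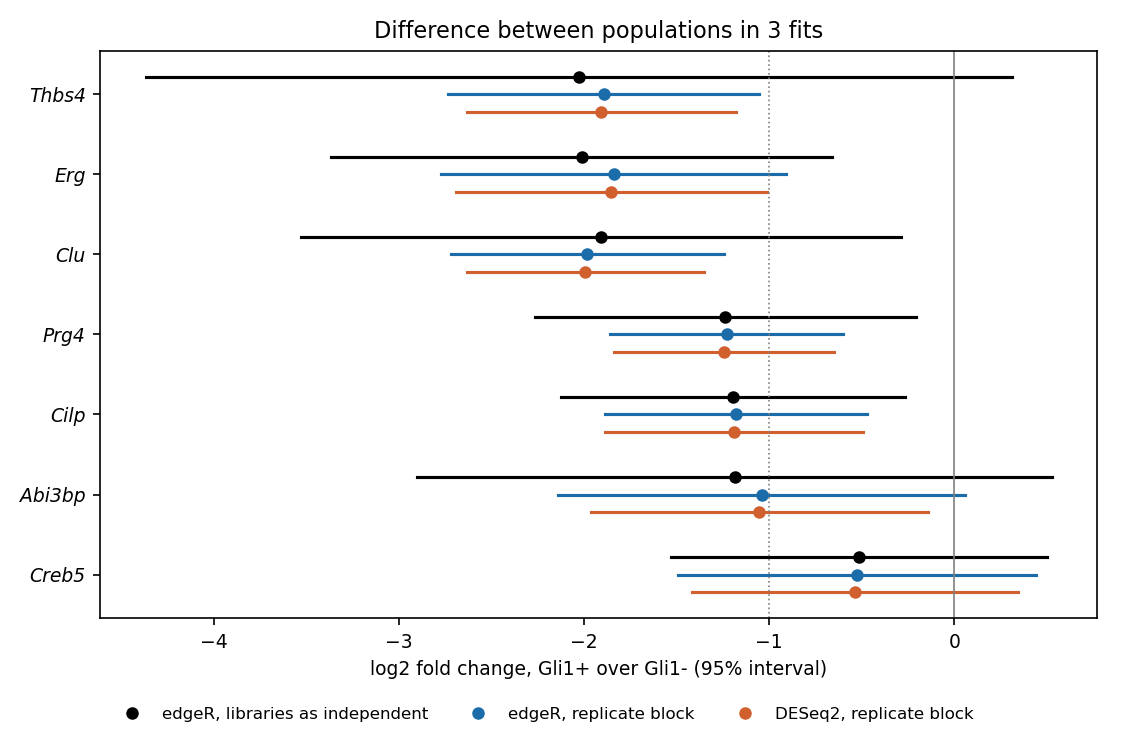
The log2 fold change (Gli1+ over Gli1-) of each gene with its 95% interval in edgeR with 6 independent libraries, edgeR with the replicate block and DESeq2 with the replicate block. All points lie below 0, and the block narrows the interval of *Thbs4* most, while *Creb5* includes 0 in all 3 fits.

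Taken as a list, the 7 genes had a median log2FC of -1.24, where the median of all 14801 genes was 0.00 and 7388 of them (49.9%) were lower in Gli1+ cells. All 7 stayed below 0 in each of the 25 alternatives run. When the libraries were scaled on 12 chondrocyte genes in place of TMM, the median of all genes was 0.31 and that of the 7 genes -0.92. That scaling brought *Thbs4* to -1.17, *Erg* to -1.44, *Cilp* to -0.66 and *Abi3bp* to -0.24. With each library left out in turn the log2FC lay between -1.47 and -0.97 for *Prg4*, -2.53 and -1.39 for *Clu*, -1.34 and -0.97 for *Cilp*, -2.39 and -1.39 for *Erg*, -0.77 and -0.30 for *Creb5*, -1.56 and -0.15 for *Abi3bp* and -2.86 and -0.64 for *Thbs4*. Gli1- replicate 2 was the highest Gli1- library for 5 of the 7 genes and Gli1- replicate 3 for 2, *Prg4* and *Creb5*.

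**Figure D3:**
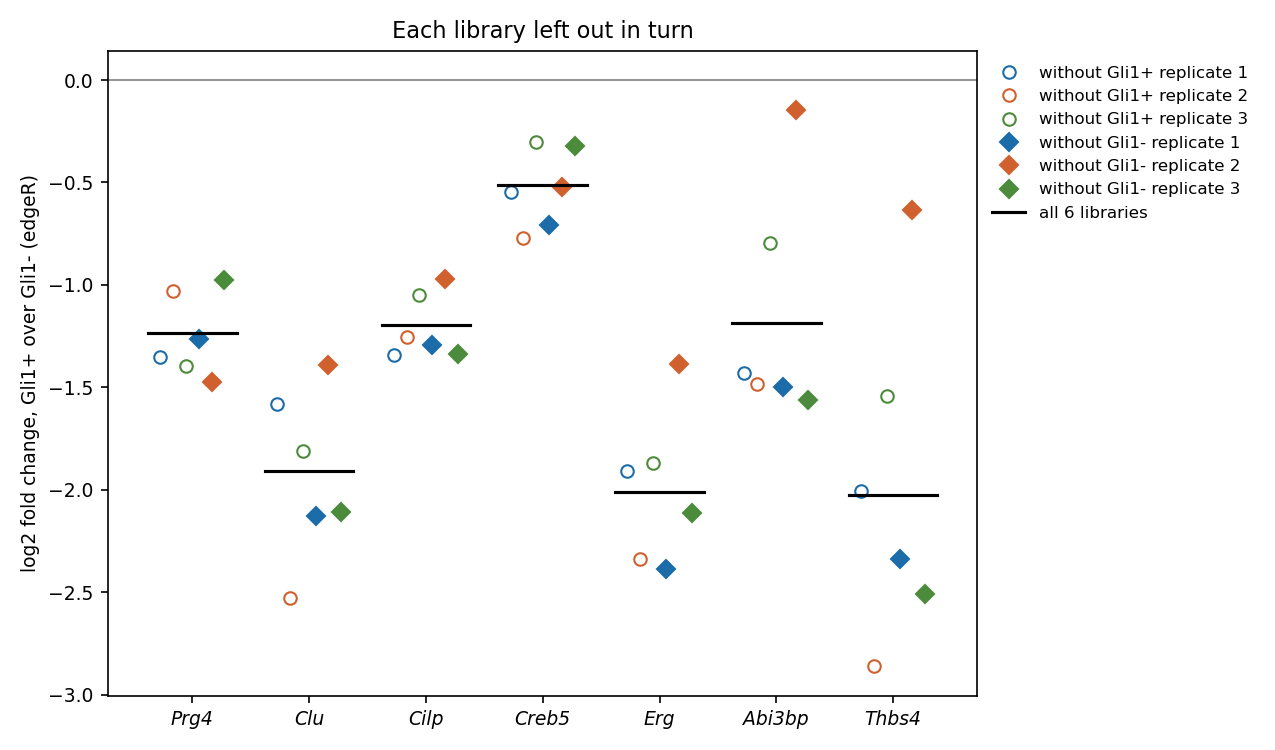
The log2 fold change (edgeR) of each gene with 1 library left out, as open circles for a Gli1+ and filled diamonds for a Gli1- library, and with all 6 libraries as black bars. No point reaches 0, and without Gli1- replicate 2 *Abi3bp* and *Thbs4* lie far above their other points, at -0.15 and -0.64.

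For the pattern over the 6 libraries, each gene's log2 CPM was centred on its own mean and compared with 11460 genes by the root mean square difference. Nearest to *Prg4* were *Ifih1* (0.152) and *Sgms2* (0.223), and nearest to *Clu* were *Bpgm* (0.184) and *Smpd1* (0.225). *Cilp* had *Pam* (0.164), and *Erg* had *Ifit3* (0.248) and *Car8* (0.252). *Creb5* had *Tcf7l2* (0.147) and *Csgalnact2* (0.150), *Abi3bp* had *Rnase4* (0.203) and *Ecm2* (0.258), and *Thbs4* had *Timp4* (0.352) and *Olfml2b* (0.382). The 7 genes were not each other's nearest neighbours. The closest 2 among them were *Clu* and *Erg*, at 0.474, with *Erg* in place 65 among the neighbours of *Clu*. *Prg4* and *Creb5*, which are linked in articular cartilage, were both nearer to *Cilp* (0.617 and 0.489) than to each other.

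A longer list of 15 genes made or used at the cartilage surface, all of them tested, was examined beside these 7. Its median log2FC was -0.70, and 13 were lower and 2 higher in Gli1+ cells. In edgeR's test 0 passed, while 3 had an unadjusted p-value under 0.05, all lower, against 2.04% of all genes lower at that threshold. *Wif1*, a secreted Wnt inhibitor, was at 108 ± 81.0 CPM in the Gli1+ and 768 ± 755 CPM in the Gli1- population (SD, n = 3), a log2FC of -2.83. *Dkk3*, a secreted glycoprotein of the Dickkopf family, was at 5.70 ± 6.82 and 31.9 ± 22.9 CPM (SD, n = 3), and *Vcam1*, a cell adhesion molecule, at 43.9 ± 19.9 and 97.5 ± 24.2 CPM (SD, n = 3). DESeq2 with the replicate block called these 3 genes and *Cilp2*, the relative of *Cilp* (log2FC -2.04, adjusted p = 0.00220), against 2.11% of all genes called lower. *Cd44*, the hyaluronan receptor, went the other way, at 1215 ± 538 CPM in the Gli1+ and 621 ± 222 CPM in the Gli1- population (SD, n = 3), with an unadjusted p-value of 0.118 in edgeR's test. In DESeq2 with the replicate block *Cd44* had a log2FC of 0.92 and an adjusted p of 0.04998, and was not called for the size of its fold. *Ecrg4*, which the table lists as 1500015O10Rik, had a log2FC of -0.51 that was smaller than its standard error of 1.07.

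Of 12 genes that act on *Prg4* through FOXO, EGFR, NFAT or TGF-beta signalling, 9 were lower and 3 higher, with a median log2FC of -0.42. The TGF-beta transducer *Smad3* had the largest difference, at 89.7 ± 15.1 CPM in the Gli1+ and 305 ± 20.8 CPM in the Gli1- population (SD, n = 3). It was the only 1 of the 12 with an unadjusted p-value under 0.05 in edgeR's test, against 2.04% of all genes lower at that threshold. DESeq2 with the replicate block also called *Smad3* alone of the 12, against 2.11% of all genes called lower. The ligand *Tgfb2* was at 456 ± 126 and 230 ± 66.3 CPM (SD, n = 3), with all Gli1+ libraries above all Gli1- libraries and an unadjusted p of 0.0596 in edgeR's test. The share of all genes separated in that direction was not counted. The ligand *Tgfb1* went the other way, at 108 ± 36.5 and 171 ± 28.8 CPM (SD, n = 3), with an unadjusted p of 0.158 in edgeR's test. All its Gli1+ libraries lay below all its Gli1- libraries, as for 4.45% of all genes. *Foxo1* (log2FC -0.13), *Foxo3* (-0.41), *Tgfbr1* (0.10) and *Tgfbr2* (-0.03) had standard errors of 0.42, 0.38, 0.52 and 0.39.

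Among relatives of the 7 genes, 8 of 10 were tested, and 4 were lower and 4 higher. In the thrombospondin family, *Comp* and *Thbs2* had log2FC values of -1.52 and -1.45, beside -2.03 for *Thbs4*, while *Thbs1* and *Thbs3* had 0.67 and 0.61. *Thbs1* was abundant in both populations, at 3302 to 4412 CPM in Gli1+ and 1797 to 3061 CPM in Gli1- libraries. *Fli1*, the nearest relative of *Erg*, was lower on average in Gli1+ cells and did not exceed 8.69 CPM in any library. *Atf2* and *Atf7*, relatives of *Creb5*, had log2FC values of 0.38 and 0.08. DESeq2 with the replicate block called *Comp* and *Cilp2* of these, both lower in Gli1+ cells, against 2.11% of all genes called lower.

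Markers of deeper cartilage and of neighbouring tissue were read for comparison. Of 12 chondrocyte genes, 8 were lower and 4 higher, and the median log2FC was -0.10. The collagen *Col2a1* had a log2FC of -0.03, whereas *Chad* and *Comp*, which encode chondroadherin and cartilage oligomeric matrix protein, had -1.83 and -1.52. Of 6 hypertrophic genes, 4 were lower and 2 higher, and the median log2FC was -0.21. The most abundant, *Spp1*, which encodes osteopontin, had a log2FC of -0.54, the collagenase gene *Mmp13* one of 2.98 and the collagen *Col10a1* one of -2.46. Of 12 fibroblast and perichondrium genes, 11 were lower, with a median log2FC of -1.27, close to that of the 7 genes. In edgeR's test 1 of the 12 had an unadjusted p-value under 0.05, against 2.04% of all genes lower at that threshold. DESeq2 with the replicate block called 4 of the 12, all lower, against 2.11% of all genes called lower. The 4 were *Pdgfra*, *Col3a1*, *Ly6a* and *Dpt* (named after their values were seen). The summed level of the list was 1836 to 4223 CPM in Gli1+ and 2292 to 10301 CPM in Gli1- libraries. Its highest sum was in Gli1- replicate 2, as for *Clu*, *Cilp*, *Erg*, *Abi3bp* and *Thbs4*. That peak was not particular to this list. The chondrocyte, hypertrophic, tendon and dissociation stress sums were also highest there, at 30807, 9578, 2678 and 32725 CPM. The sum of the *Prg4* regulators was highest in Gli1- replicate 3. The most abundant fibroblast and perichondrium genes, *Dcn*, *Col1a2* and *Lum*, had log2FC values of -0.39, -1.50 and -0.40. Whether perichondrial cells had a part in the levels of the 7 genes was not tested. Without Gli1- replicate 1, the library that held leukocyte transcripts, the median log2FC of the 7 genes was -1.50.

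**Figure D4:**
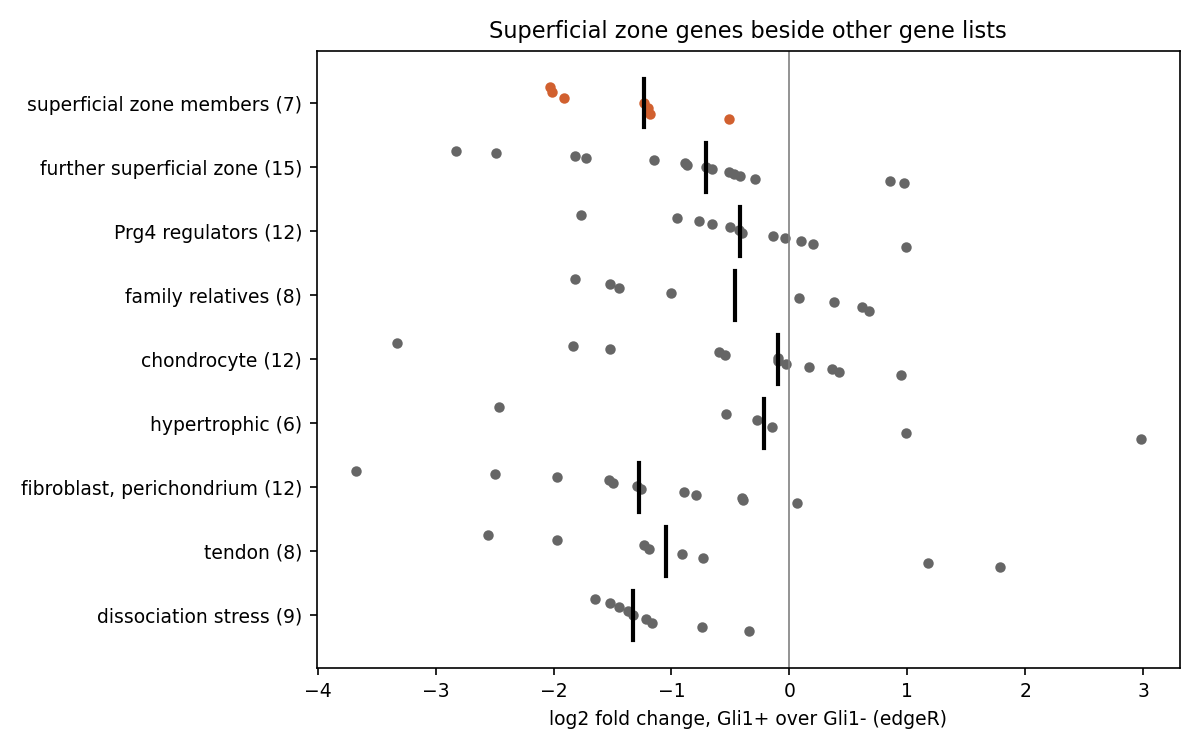
The log2 fold change (edgeR) of every tested gene in 9 lists, with black bars for the medians and the number of genes in parentheses. The 7 superficial zone genes lie below 0 with a median of -1.24, beside -1.27 for fibroblast and perichondrium genes, -1.32 for dissociation stress and -0.10 for chondrocyte genes.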

How the data were processed

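The authors deposited 1 table of raw read counts per gene for 6 libraries, without normalization or pooling. The submitters' processing notes name HISAT2 (2.0.5), featureCounts (1.5.0-p3) and mm10. The annotation and the use of strand are not given in the sources used here, so reads of overlapping genes may be shared. Columns were matched to samples by title, and 0 columns were left unused. The members and lists were chosen with earlier results of these data known.

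Genes were filtered with filterByExpr (minimum count of 10), scaled by TMM and tested across all genes by the quasi-likelihood method of edgeR 4.0.16 (R 4.3.3, prior count of 2 for log2 CPM). P-values were adjusted over all genes by the Benjamini-Hochberg method, and genes were called at |log2FC| over 1 and adjusted p under 0.05. DESeq2 1.42.0 and limma 3.58.1 (voom) were alternatives. The biological coefficient of variation was 0.662, and 0.466 with the block. The members' counts were 170 to 169094 per library, so the spread between libraries exceeded counting error. The labels do not tie libraries to animals, while the paper takes Gli1+ and Gli1- cells to be from shared mice, so p-values measure the spread between these libraries.

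To check the pairing, each library's deviation from its population mean was correlated over genes with that of the library bearing the same number. The coefficients were 0.223, 0.720 and 0.471 for replicates 1, 2 and 3, all over 0.1, and the numbers were treated as pairs. Gli1+ replicate 1 correlated slightly more with Gli1- replicate 3 (0.274) than with its own number. Gli1+ replicate 3 correlated with Gli1- replicate 1 at 0.107. Both of these also lie over 0.1, so that cut alone does not identify pairs. Genes are not independent, so these coefficients are descriptions. The fit without the block was the main one, since the study's methods name no block.

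The genes named were the 7 members, *Gli1*, any gene of the 3 short lists (surface genes, *Prg4* regulators, relatives), the 3 genes of highest mean CPM in each other list and the 2 nearest in pattern among genes with a mean log2 CPM of at least 1. One of the genes near *Cilp* in pattern is not reported here. *Tpr* was named for its overlap. Figures were drawn with matplotlib 3.10.9.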

Additional observations from a re-analysis of the deposited data

How the results depend on the processing

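The direction of all 7 genes held in each of the 25 alternatives, which were other scalings, filters, tests, the replicate block, libraries left out and a threshold on the adjusted p alone, and 0 of 175 single-gene values reversed. The last of these changes no log2FC by construction. Of the 175 values, 156 stayed uncalled and 19 became called. With all 6 libraries, 5 members were called by DESeq2 with the replicate block, and 0 by edgeR with the replicate block, by limma-voom with or without it, or by DESeq2 without it. With libraries left out, the number of members called ran from 0 to 6 and the median log2FC from -1.61 to -0.97. Without replicate 1 it was 6 with the block, against 4.67% of all genes called lower in edgeR and 3.27% in DESeq2. In DESeq2 with the block it was 1, *Clu*, without replicate 2 (against 0.941%) or without replicate 3 (against 0.421%). The fits that leave out both libraries of a replicate number keep 4 libraries, in which the spread is borrowed from all genes. Without a filter on low counts edgeR tested 28536 genes and called 267, of which 0 were members. The chondrocyte-list scaling moved the median of all genes by over 0.1. *Creb5* and *Abi3bp* were the members whose interval held 0 in edgeR both with and without the replicate block. There were 3 libraries a population, and replicate 2 carried the highest levels of 5 members. In edgeR without the block *Thbs4* and *Abi3bp* had the largest standard errors of the 7, 1.02 and 0.75. With the block these were 0.34 and 0.44. With both libraries of replicate 2 left out, edgeR with the block gave *Thbs4* a log2FC of -1.72 and *Abi3bp* one of -0.68. The causes were not tested.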
